A study of Mus musculus with 3 samples.

Results

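Perineurial cells of the sciatic nerve were compared between the tissue bridge present at day 21 after injury and the intact nerve. They were taken as the cells that the authors' deposited cell metadata calls MES_PERI, and they number 2185 of the 7234 cells with a class in the series, with 2069 in the day 21 library and 116 in the intact library. All cells came from mice carrying Pdgfrb-cre/ERT2, an inducible Cre recombinase driven by Pdgfrb, together with R26-TomatoLSL, a reporter that Cre switches on. Nerves were pooled and digested, and TdTomato-positive cells were sorted for droplet single-cell RNA sequencing. A perineurial cell that the reporter did not label would thus not be in either library. Each of the 3 groups, intact nerve and the bridge at day 7 and at day 21, was 1 library. The labels used here name neither the kind of injury nor the age of the mice or the number pooled. Myelin-removal beads were used for intact nerve alone, so the bead step and the injury cannot be told apart.

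Perineurial cells form the concentric sheath around each nerve fascicle. They are flattened cells joined by tight junctions, wrapped in basement membrane on both faces and rich in caveolae, and they control which solutes pass between the blood-exposed epineurium and the axon compartment. After a nerve is cut, cells that connect the stumps must build this sheath again, and the comparison sets a sheath population of the bridge against that of uninjured nerve.

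The summed perineurial cells held 13375190 UMIs (unique molecular identifiers, each a counted transcript) at day 21 and 725278 in intact nerve, with medians of 5829 and 5291 UMIs per cell. Values below are CPM, the UMIs of a gene per 1000000 UMIs of the sum, and ratios are day 21 over intact with 0.5 counts added. Brackets after a ratio hold an interval that covers counting error only, because 1 library per group allows no test and no estimate of the spread between animals. The intact sum is the smaller, and 3 counts in it equal 4.14 CPM, against 0.224 CPM at day 21. Of 6645 genes with at least 20 CPM in the higher library, called measured here, 381 were at least 2-fold higher at day 21 (5.73%) and 583 at least 2-fold lower (8.77%). Counts of list members past 2-fold below are to be read beside these shares. The median ratio of all measured genes was -0.05 on the log2 scale.

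The class name was checked against 8 perineurial markers, and each of the 8 was higher in MES_PERI cells than in endoneurial or epineurial cells of the same library, in both libraries. Summed over the 8, perineurial cells had 2867 CPM at day 21 and 5625 in intact nerve, while endoneurial cells had 219 and 42.7 and epineurial cells 175 and 30.9. Perineurial cells made up 50.3% of classed cells at day 21 and 8.64% in intact nerve, shares that the sort and dissociation can set. Schwann markers summed to 287 CPM in perineurial cells at day 21 and 116 in intact nerve. S100b held 103 CPM of the intact sum and was lower at day 21, at 33.3 CPM. Of the 5 Schwann markers measured, 4 were at least 2-fold higher at day 21, among them Mbp at 60.7 against 1.38 CPM. The day 21 Schwann sum was 226 CPM in endoneurial and 232 in epineurial cells, and 16776 among day 21 barcodes without a class. The Schwann transcription factor gene Sox10 was at 2.47 CPM in day 21 and 0 in intact perineurial cells. Endothelial markers summed to 17.9 against 5.52 CPM and myeloid markers to 15.03 against 4.14 CPM. The part of such transcripts in the results below was not tested.

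Among the 8 perineurial markers, none was 2-fold higher at day 21 and 5 were at least 2-fold lower, the median log2 ratio being -1.56. Msln, which encodes the surface glycoprotein mesothelin, was at 23.8 CPM at day 21 against 393 in intact nerve, 16.5-fold lower (95% interval 14.04 to 19.5). Lypd2, a member of the Ly6 family of surface proteins, was at 320.1 CPM at day 21 against 1372 in intact nerve, 4.29-fold lower (3.997 to 4.59). Itgb4, the integrin chain that anchors hemidesmosomes to laminin, was at 422 CPM at day 21 against 1513 in intact nerve, 3.59-fold lower (3.36 to 3.83). Perp, a desmosome-associated membrane protein, was at 55.3 against 254 CPM, and Slc2a1, the glucose transporter GLUT1 of blood-tissue barriers, was at 337 against 818 CPM, 2.43-fold lower (2.22 to 2.64). The other three went the opposite way without reaching 2-fold. Cldn1, the principal perineurial claudin, was at 1090.3 against 878 CPM (0.31 on the log2 scale), Krt19, a keratin, at 429 against 294 CPM (0.54), and Moxd1, a monooxygenase-like gene, at 190.4 against 105 CPM (0.85). The marker set was thus not lower as a block at day 21: the claudin, the keratin and Moxd1 were at or above the intact level beside a 16.5-fold lower Msln.

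At equal depth, with every cell thinned to 2000 UMIs, the median number of the 8 markers seen in a cell was 3 at day 21 and 4.5 in intact nerve. Msln was seen in 3.82% of day 21 perineurial cells and 41.4% of intact ones, while 0.292% of day 21 epineurial cells had a UMI of it at the same depth (median 9666 UMIs before thinning). The 79 day 21 cells in which Msln was seen were compared with the other cells of that library. Sfrp5 was seen in 87.3% of them (exact binomial interval 78.0 to 93.8) and in 50.1% of the other 1990 cells (47.9 to 52.3), and Ntng1 in 41.8% against 16.8%. Itgb4 was seen in 69.6% against 48.9%, and Krt19, which was higher at day 21, in 64.6% against 44.2%. Cldn1 was seen in 84.8% and 84.1%. Lgals7, the highest of the genes chosen by the size of their ratio (below), was seen in 16.5% of the Msln cells and 31.4% of the rest. In day 21 epineurial cells thinned alike, Sfrp5 was seen in 2.63%, Ntng1 in 1.07%, Itgb4 in 2.14%, Cldn1 in 15.4% and Lgals7 in 0.974%. Intervals over cells of 1 library describe that library only.

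**Figure D1:**
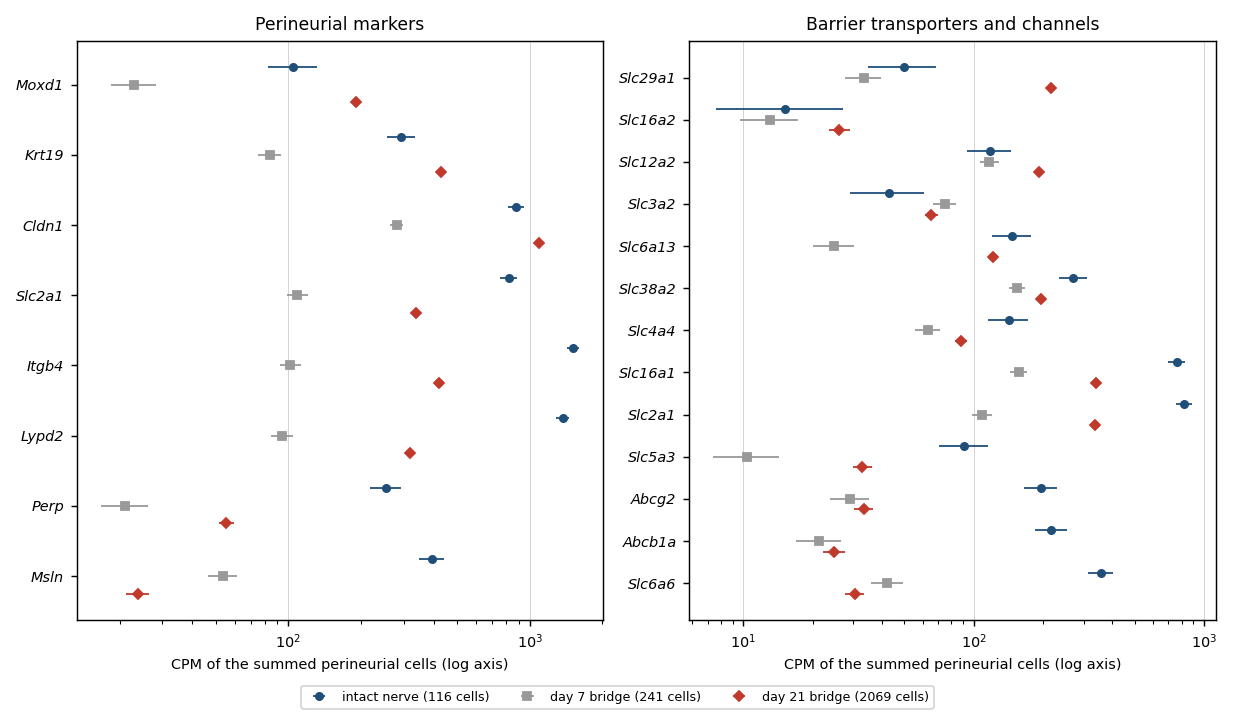
CPM (log axis) of the 8 perineurial markers (left) and 13 of the 15 measured transporter and channel genes (right) in perineurial cells of the 3 libraries, with exact Poisson 95% intervals as bars. Day 21 values lie below intact ones for Msln (23.8 against 393 CPM) and Slc6a6 (30.4 against 357 CPM) and above them for Moxd1 (190 against 105 CPM) and Slc29a1 (216 against 49.6 CPM).

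Measured tight junction genes were mostly near the intact level or well below it, with 1 well above it. Of 23 listed genes 11 were measured, 1 was at least 2-fold higher and 4 at least 2-fold lower. Their median log2 ratio was -0.22, against -0.05 for all genes. Ocln, encoding occludin, was at 70.3 against 49.6 CPM, Cgnl1, encoding the junction adaptor paracingulin, at 214 against 216 CPM, and Tjp1, encoding the scaffold ZO-1, at 326 against 510.1 CPM. F11r, which encodes the adhesion molecule JAM-A, was at 138 against 456 CPM, 3.30-fold lower (2.93 to 3.71), while its relative Jam3 was at 40.7 against 9.65 CPM, 3.94-fold higher (2.04 to 10.6). Cxadr, an adhesion receptor of epithelial junctions, was at 47.9 against 192 CPM, 4.01-fold lower (3.30 to 4.81). Jam2 was at 11.4 against 28.95 CPM, a log2 ratio of -1.38 that was -0.39 with cells thinned.

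Of the connexin and pannexin genes, 4 of 12 were measured, 1 past 2-fold in each direction. Gjb2, encoding connexin 26, was at 72.1 CPM at day 21 against 12.4 in intact nerve, 5.51-fold higher (3.05 to 12.8), and at 3.91 CPM in day 21 endoneurial cells and 1.26 in epineurial cells. Gja1, encoding connexin 43, was at 105 against 316 CPM, 3.02-fold lower (2.61 to 3.46). Its log2 ratio of -1.59 was -0.84 when cells rich in markers of other types were left out, which kept 28 of the 116 intact cells. Adhesion genes of the cadherin, nectin and desmosome list had 11 of 20 measured, 0 higher and 3 lower. Cdh5, encoding the endothelial-type VE-cadherin that perineurial cells also express, was at 267 against 352 CPM. Cdh11 was at 435 against 284 CPM, and Jup, encoding plakoglobin, was at 122 against 248 CPM, close to 2-fold.

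Transporter genes, which carry solutes across the sheath, were lower more often than higher. Of 22 transporter and channel genes 15 were measured, 2 at least 2-fold higher and 7 at least 2-fold lower, against 5.73% and 8.77% of all measured genes. Their median log2 ratio was -0.70. Slc6a6, the taurine transporter, was at 30.4 CPM at day 21 against 357 in intact nerve, 11.7-fold lower (10.003 to 13.7). The efflux pumps of blood-tissue barriers were both lower: Abcb1a, encoding P-glycoprotein, was at 24.7 against 216 CPM, 8.79-fold lower (7.21 to 10.6), and Abcg2 at 33.3 against 196 CPM, 5.90-fold lower (4.84 to 7.12). Slc16a1, the lactate transporter MCT1, was at 338 against 762 CPM, a log2 ratio of -1.17, and Slc5a3, the inositol transporter, at 32.9 against 91.00 CPM. Slc29a1, the equilibrative nucleoside transporter, was at 216 against 49.6 CPM, a log2 ratio of 2.10. The summed transporter list was 1882 against 3938 CPM in perineurial cells, 861 against 1216 in endoneurial and 956 against 853 in epineurial cells.

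All 7 caveolar coat genes were measured and within 2-fold, as were 85.5% of all measured genes. Cav1, which encodes the main coat protein caveolin-1, was at 1280.0 against 1176 CPM, Cavin1 at 908 against 950.0 CPM and Cavin2 at 272 against 472 CPM. Hemidesmosome and keratin genes had 6 of 13 measured, with Itgb4 and the tetraspanin gene Cd151 the 2 past 2-fold, both lower. Cd151 was at 159 against 342 CPM, a log2 ratio of -1.11 that was -0.74 without cells rich in markers of other types, and Itga6, the partner chain of Itgb4, was at 269 against 321 CPM.

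Basement membrane genes differed chain by chain, with laminin chains in both directions. Of 23 genes 18 were measured, 5 at least 2-fold higher and 4 at least 2-fold lower, with a median log2 ratio of 0.48. Lamb1, the beta-1 chain of laminin on chromosome 12 (31265234 to 31329644, GRCm38), was at 158 CPM at day 21 against 16.5 in intact nerve, 9.16-fold higher (95% interval 5.45 to 18.5). Lamb2, the beta-2 chain, was at 427 against 798 CPM, a log2 ratio of -0.90. Other chains were low at day 21: Lamb3, an epithelial-type chain, was at 0.822 against 23.4 CPM, 28.1-fold lower (12.6 to 67.3), and Lama5 at 4.93 against 41.4 CPM, 8.46-fold lower (5.25 to 13.1). Npnt, encoding the integrin ligand nephronectin, was at 12.3 against 91.00 CPM, 7.46-fold lower (5.49 to 9.93). Lama2, Lama4 and Lamc1, chains of mesenchymal and vascular laminins, were at 131 against 66.2 CPM, 364 against 261 CPM and 369 against 277 CPM. Without the intact cells holding most Acta2 (below), the Lama5 log2 ratio went from -3.08 to -2.20 and that of Npnt from -2.90 to -2.13. Without cells rich in markers of other types, that of Lamb1 went from 3.19 to 1.61.

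The collagen and nidogen genes of the basement membrane that were past 2-fold were all higher at day 21. Col18a1, whose collagen XVIII releases endostatin, was at 330.2 CPM at day 21 against 44.1 in intact nerve, 7.37-fold higher (5.29 to 10.95). Col4a5 was at 81.5 against 13.8 CPM, Col15a1 at 154 against 46.9 CPM and Nid2, encoding nidogen-2, at 238 against 101 CPM. Col4a1, a chain of the main type IV collagen network, was at 1173 against 655 CPM, a log2 ratio of 0.84.

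Collagens of the interstitial matrix were mostly higher. Of 16 genes 12 were measured, 7 at least 2-fold higher and 1 lower, against 5.73% and 8.77% of all measured genes. The median log2 ratio was 1.04. Col3a1 was at 3246 CPM at day 21 against 910.0 in intact nerve, 3.56-fold higher (3.30 to 3.86), Col1a2 at 2657 against 845 CPM and Col1a1 at 2824 against 1093 CPM. Col5a2, a chain of the fibril-nucleating collagen V, was at 425 against 86.9 CPM, 4.85-fold higher (3.82 to 6.37), and Col6a3 at 666 against 165 CPM, 4.01-fold higher (3.36 to 4.86). Col8a1, a short-chain collagen, was the 1 lower, at 118 against 357 CPM. The summed list was 11355 against 4276 CPM in perineurial cells and 46507 against 19699 in epineurial cells, which hold more of these transcripts. Whether transcripts released by those cells add to the perineurial sums was not tested.

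**Figure D2:**
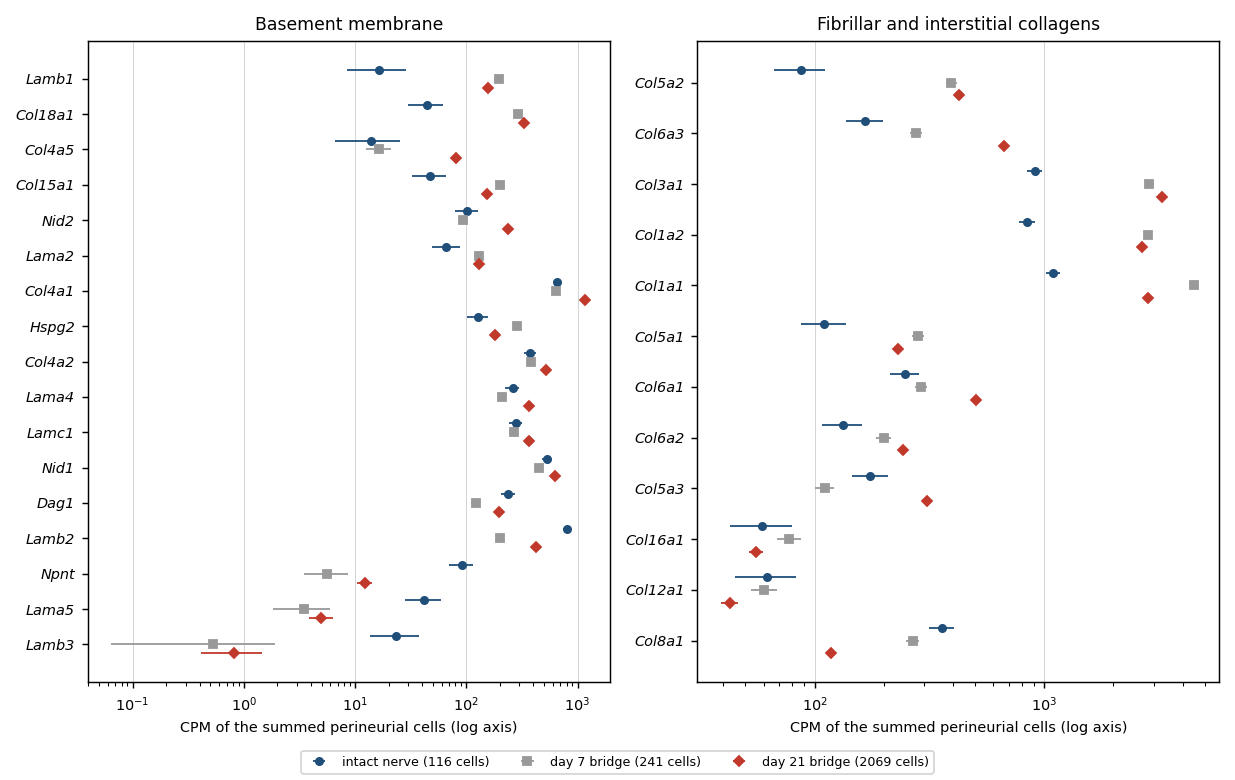
CPM (log axis) of 17 of the 18 measured basement membrane genes (left) and collagens (right) in perineurial cells of the 3 libraries, with exact Poisson 95% intervals as bars. Day 21 exceeds intact nerve at Lamb1 (158 against 16.5 CPM) and Col5a2 (425 against 86.9 CPM), and intact nerve exceeds day 21 at Lamb3 (23.4 against 0.822 CPM) and Col8a1 (357 against 118 CPM).

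Elastic fibre genes had 16 of 18 measured, 8 at least 2-fold higher and 3 lower, against 5.73% and 8.77% of all measured genes. Ltbp1, which holds latent TGF-beta in the matrix, was at 344 against 67.6 CPM, 5.04-fold higher (3.85 to 6.90), and at 119 and 97.9 CPM in day 21 endoneurial and epineurial cells. Fbn2, a developmental fibrillin, was at 85.7 against 15.2 CPM, and Fbn1 at 415 against 165 CPM. Thsd4, which promotes fibrillin assembly, was at 1.72 against 78.6 CPM, 45.1-fold lower (27.7 to 77.7). Small leucine-rich proteoglycans had 8 of 10 measured, 0 higher and 4 lower. Fmod, encoding the collagen-binding fibromodulin, was at 41.3 against 247 CPM, 5.99-fold lower (5.02 to 7.09), and Ogn, encoding osteoglycin, at 279 against 1332 CPM, 4.78-fold lower (4.45 to 5.13), whereas Dcn, encoding decorin, was at 10561 against 11442 CPM. Of the matricellular genes, Spp1, encoding osteopontin, was at 39.8 against 361 CPM and at 436 CPM at day 7, so the intact and day 7 levels both exceeded the day 21 one.

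Contractile genes included Acta2, the lowest of the genes chosen by the size of their ratio (below). Of 19 genes 14 were measured, 0 were 2-fold higher and 7 at least 2-fold lower, against 5.73% and 8.77% of all measured genes. The median log2 ratio was -1.12. Acta2, the smooth muscle actin, was at 3.96 CPM at day 21 against 543 in intact nerve, 136-fold lower (103 to 186), Tagln, an actin-binding protein of contractile cells, at 126 against 1405 CPM, 11.2-fold lower (10.3 to 12.1), and Tpm2, a tropomyosin, at 53.2 against 469 CPM. The Acta2 signal of intact nerve was held by few cells: 22 of the 116 cells had at least 3 UMIs and carried 93.9% of it, against 2 such cells at day 21. Vascular smooth muscle markers, Acta2 and Tagln included, summed to 1983 CPM in intact perineurial cells, against 133 at day 21, and to 23174 among intact barcodes without a class. Of the 7 vascular smooth muscle markers other than Acta2, Tagln was at 4914 CPM in the 22 cells against 259.7 in the other 94 and Mylk at 78.5 against 12.8 CPM, and the other 5, Myh11 among them, were at 0 in the 22 cells, as were 4 of the 7 in the other 94. Of the 8 pericyte markers 6, Rgs5 and Notch3 among them, were at 0 in the 22 cells and 5 in the others, while Vtn was at 448 against 729.7 CPM and Cspg4 at 39.2 against 271 CPM. Msln was at 796 CPM and Lypd2 at 1844 CPM in the 22 cells, against 262 and 1218 in the others. Cldn1 went the other way, at 829 against 894 CPM. The remaining perineurial markers were not compared between these cells. The part of vascular cells in the Acta2 signal was not tested. Without cells of at least 3 Acta2 UMIs, an alternative chosen after the data were seen, the median of the contractile list was -0.56, Acta2 was -3.69, Tagln -1.14 and Tpm2 -1.64 on the log2 scale. The shift of Acta2 itself is by construction, since the cells were left out by their Acta2 UMIs.

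The 15 genes with the largest ratio in each direction were chosen by rule, from genes that reached 50 CPM in the higher library and were seen there in 10% of cells or more. Higher at day 21 were Lgals7, Mndal, Ptn, Socs2, Crispld1, Has1, Antxr1, Plekha6, Olfml2a, Nr4a2, Fjx1, Ammecr1, Scn7a, Lamb1 and Clec3b. Lower, with 14 of the 15 given here, were Acta2, Rbp4, Thsd4, Gpm6a, Lrrn1, Miat, Stmn2, Msln, Slc16a9, Snhg11, Tinagl1, Nebl, Tnfrsf11b and Casq2. All 15 lower genes had a higher level in intact perineurial cells than in intact endoneurial or epineurial cells. Of the 15 higher genes, 8 were highest in the perineurial class at day 21 and 7 were not. The 7 were Mndal, Ptn, Has1, Antxr1, Scn7a, Lamb1 and Clec3b. The rule chose genes by their perineurial level in the same library, so these class counts are not independent of the choice. No such share over all genes is given here.

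Lgals7, encoding galectin-7, a lectin best known from stratified epithelia, was at 444 CPM at day 21 against 4.14 in intact nerve, a ratio of 92.1 (36.8 to 521) that rests on 3 intact counts. It lies on chromosome 7 from 28863853 to 28866284. It was at 39.2 CPM in day 7 perineurial cells, and at 52.4 CPM in endoneurial and 7.86 in epineurial cells of day 21. Crispld1, a secreted cysteine-rich protein gene, was at 126 against 5.52 CPM, 20.3-fold higher (8.92 to 84.03), and Fjx1, encoding a Golgi kinase-like protein of the four-jointed family, at 185 against 15.2 CPM, 11.6-fold higher (6.79 to 24.4). Antxr1, which encodes a collagen-binding surface receptor, was at 186 against 11.03 CPM, 15.8-fold higher (8.53 to 39.03), and in epineurial cells of day 21 at 294 CPM. Has1, a hyaluronan synthase, was at 115 against 5.52 CPM, 18.6-fold higher (8.13 to 76.7). In epineurial cells Has1 was at 460 CPM at day 21 and 325 in intact nerve. Plekha6, a junction-associated adaptor, was at 69.7 against 4.14 CPM, a ratio of 14.4 (5.75 to 81.8) on 3 intact counts. Clec3b, encoding tetranectin, was at 211 against 23.4 CPM, 8.75-fold higher (5.61 to 15.5), beside 2642 CPM in day 21 epineurial cells. Ptn, encoding the growth factor pleiotrophin, was at 53.5 against 1.38 CPM, a ratio of 25.9 (6.95 to 1536) on 1 intact count, and at 726 CPM in those epineurial cells. With 3 counts added in place of 0.5, the log2 ratio of Lgals7 went from 6.53 to 5.75, that of Ptn from 4.69 to 3.28 and that of Crispld1 from 4.35 to 3.71.

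Rbp4, the plasma retinol carrier, was at 2.47 CPM at day 21 against 186 in intact nerve, 74.6-fold lower (51.2 to 114). Gpm6a, a neuronal membrane glycoprotein gene on chromosome 8 (54954843 to 55060871), was at 4.49 against 182 CPM, 40.4-fold lower (29.7 to 56.01), and below 1 CPM in endoneurial and epineurial cells of both libraries. Slc16a9, a monocarboxylate and carnitine transporter, was at 13.5 against 222 CPM, 16.4-fold lower (13.2 to 20.4), and Stmn2, a microtubule regulator known from neurons, at 6.95 against 117 CPM, 16.9-fold lower (12.4 to 22.9). Casq2, the calcium store protein calsequestrin-2, was at 14.4 against 174 CPM, and Nebl, an actin-associated protein gene, at 5.61 against 79.97 CPM. Tnfrsf11b, encoding the decoy receptor osteoprotegerin, was at 4.34 against 56.5 CPM. Without the 22 Acta2-rich intact cells, the log2 ratio of Rbp4 went from -6.22 to -4.57, that of Thsd4 from -5.50 to -4.55 and that of Tnfrsf11b from -3.71 to -1.65.

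**Figure D3:**
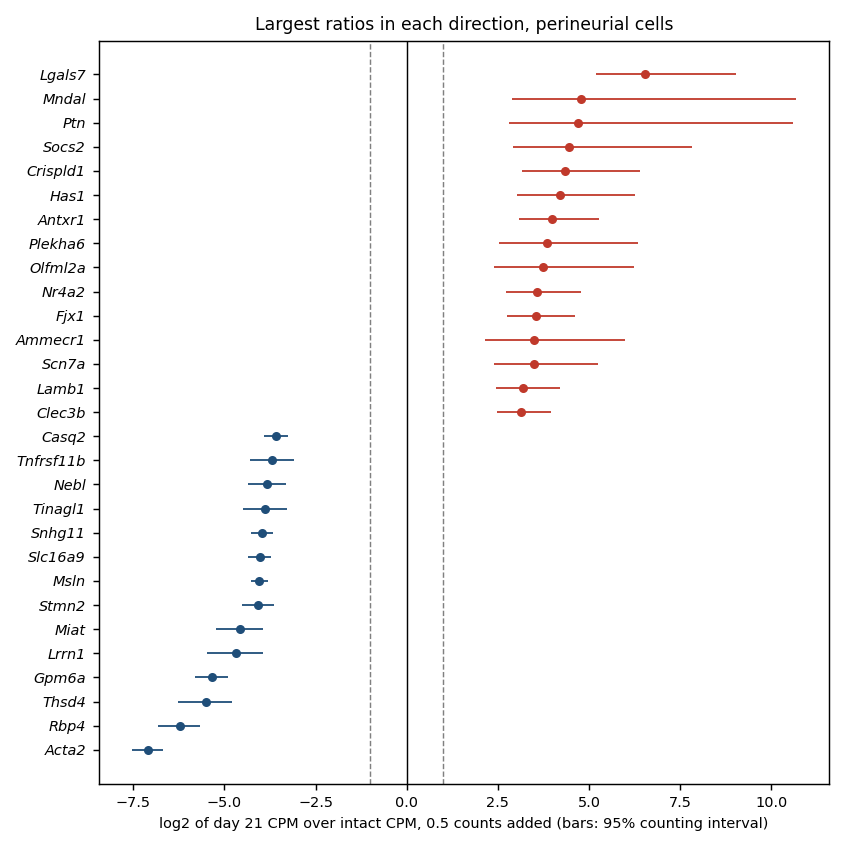
Log2 ratio of day 21 over intact CPM (0.5 counts added) for the 15 genes with the largest ratio upward and 14 of the 15 with the largest ratio downward, with 95% counting intervals as bars and dashed lines at 2-fold. The ratios run from 6.53 at Lgals7 to -7.09 at Acta2, and the higher genes have the wider bars because they rest on few intact counts.

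Immediate-early genes, which cells transcribe within minutes of a stimulus and which tissue dissociation can also switch on, were higher at day 21 nearly throughout. Of 27 genes 25 were measured, 22 were at least 2-fold higher and 0 lower, against 5.73% of all measured genes, and the median log2 ratio was 1.73. Fos was at 4805 CPM at day 21 against 1149 in intact nerve, 4.18-fold higher (3.91 to 4.49), Egr1 at 1947 against 649 CPM, Jun at 1980.5 against 631 CPM and Junb at 2324 against 702 CPM. Socs3, the feedback inhibitor of cytokine receptor signalling, was at 1323 against 230.3 CPM, 5.73-fold higher (4.93 to 6.73), and Nr4a2, an orphan nuclear receptor, at 155 against 12.4 CPM, 11.8-fold higher (6.55 to 27.3). Dusp1, encoding a phosphatase of the MAP kinases, was at 251 against 203 CPM, within 2-fold, as were Klf4 and Klf6.

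The class that stood apart in this list was the perineurial class of intact nerve. Summed over the list, intact perineurial cells had 6607 CPM, while intact endoneurial cells had 21077 and intact epineurial cells 23786. At day 21 the same sums were 21492, 21033 and 28771 CPM, and day 7 perineurial cells had 12483. Cells of 1 library went through the same digestion together, and how each class responds to digestion was not tested. The list's median stayed between 1.08 and 2.21 on the log2 scale over the alternatives, the lowest with other-type marker cells left out.

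To show the start regions of listed genes, the 250 bases before the transcript start were searched, and all 3 motifs read the same on both strands. The motifs were TGACGTCA (the cyclic AMP response element), the CArG box bound by serum response factor, and TTCNNNGAA (a STAT-type site). Sequences are from the RefSeq promoter table on GRCm38.p6, and 22 of the 27 listed genes were in it. TGACGTCA occurred before 3 of these genes (Btg2, Dusp1 and Maff) and in 1.55% of all 32851 starts in the table, the CArG box before 3 (Dusp5, Egr2 and Zfp36) and in 1.47%, and TTCNNNGAA before 2 (Socs3 and Zfp36) and in 7.02%. A gene was counted if any of its starts matched, whereas the percentages are of starts, so the gene counts and percentages differ in unit. Dusp1 was within 2-fold. The 200 bases before the start are printed for the 4 genes past 2-fold that have 1 start in the table and a motif in that stretch, with the motifs in capitals. A match is a run of letters and no measure of binding.
Btg2: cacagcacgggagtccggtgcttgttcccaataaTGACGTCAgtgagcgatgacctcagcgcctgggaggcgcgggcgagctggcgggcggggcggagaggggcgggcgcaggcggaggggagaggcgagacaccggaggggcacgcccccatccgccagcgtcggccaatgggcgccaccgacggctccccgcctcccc
Dusp5: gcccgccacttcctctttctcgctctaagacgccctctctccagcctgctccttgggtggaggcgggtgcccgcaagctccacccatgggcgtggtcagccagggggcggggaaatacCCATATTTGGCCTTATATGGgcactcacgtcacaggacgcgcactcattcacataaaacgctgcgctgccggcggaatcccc
Zfp36: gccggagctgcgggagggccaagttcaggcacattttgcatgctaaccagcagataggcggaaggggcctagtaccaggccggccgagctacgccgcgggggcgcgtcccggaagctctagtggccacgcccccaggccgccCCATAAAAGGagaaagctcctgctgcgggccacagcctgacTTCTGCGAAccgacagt
Socs3: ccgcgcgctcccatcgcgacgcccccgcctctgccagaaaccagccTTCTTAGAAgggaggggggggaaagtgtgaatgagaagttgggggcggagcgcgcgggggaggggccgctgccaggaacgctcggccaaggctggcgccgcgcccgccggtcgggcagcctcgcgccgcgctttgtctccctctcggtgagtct
Btg2, an antiproliferative gene (chr1:134079156-134079355, minus strand), was at 561 against 179 CPM. Dusp5, a nuclear MAP kinase phosphatase gene (chr19:53528945-53529144, plus strand), has CArG boxes in adjoining positions, at 82 and 72 bases before the start, and was at 125 against 17.9 CPM, 6.72-fold higher (4.07 to 13.1). Zfp36, which encodes an mRNA decay factor (chr7:28379229-28379428, minus strand), has a CArG box at 58 bases before the start and a STAT-type match at 17, and was at 625 against 232 CPM. Socs3 (chr11:117969367-117969566, minus strand) has the STAT-type match at 154 bases before the start.

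**Figure D4:**
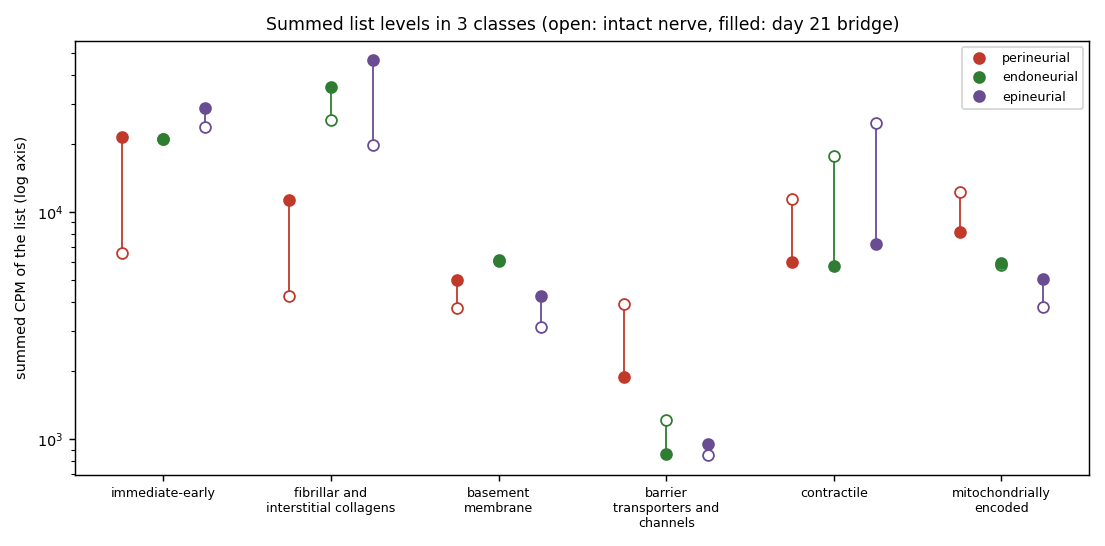
Summed CPM (log axis) of 6 gene lists in perineurial, endoneurial and epineurial cells, with open circles for intact nerve and filled circles for the day 21 bridge. For the immediate-early list the intact perineurial value (6607 CPM) lies apart from the other 5, which run from 21033 to 28771 CPM.

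Interferon and antigen presentation genes had 16 of 28 measured, 5 at least 2-fold higher and 0 lower. Irf1, the transcription factor of interferon signalling, was at 369.7 against 74.5 CPM, 4.92-fold higher (3.80 to 6.62), and Ifitm1, a membrane restriction factor gene, at 162 against 22.1 CPM, 7.13-fold higher (4.52 to 12.9). Ifi203 and Mndal, neighbouring relatives whose reads may be shared, were at 44.9 against 0 CPM, at least 10.8-fold higher against 3 counts, and at 57.3 against 1.38 CPM, a ratio of 27.7 (7.43 to 1643) on 1 intact count. Epineurial cells held more of both, with Ifi203 at 144 CPM at day 21 and 111 in intact nerve, and Mndal at 97.8 and 71.7 CPM. The antigen presentation genes B2m and H2-K1 were at 377 against 514 CPM and 61.8 against 102 CPM, within 2-fold. Among chemokine and cytokine genes 4 of 11 measured were higher and 3 lower, with the neutrophil attractant Cxcl1 at 421 against 117 CPM, 3.57-fold higher (2.90 to 4.50), and Ackr3, a scavenging receptor of Cxcl12, at 61.3 against 295 CPM, 4.82-fold lower (4.12 to 5.60).

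Wnt genes were grouped into secreted inhibitors, with 4 of 11 measured, 2 higher and 1 lower, and ligands, receptors and targets, with 13 of 27 measured, 4 higher and 2 lower. Sfrp5, a secreted frizzled-related inhibitor, was at 796 CPM at day 21 against 5490.3 in intact nerve, 6.90-fold lower (6.65 to 7.15), and at 300.1 CPM at day 7. The ligand gene Wnt6 was at 375 against 470.2 CPM and Wnt9a at 17.4 against 60.7 CPM. Wnt2b had 1 count at day 21 and was at 23.4 CPM in intact nerve, 215-fold lower at day 21 (49.1 to 13102). The receptor genes Ror2 and Ror1, which bind Wnt5a, were at 28.04 against 5.52 CPM and 44.9 against 16.5 CPM, and Wnt5a was at 57.1 against 20.7 CPM. The log2 ratio of Wnt9a went from -1.81 to -0.96 without the Acta2-rich cells.

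Hedgehog pathway genes, through which Schwann cells are known to direct the perineurium, had 9 of 14 measured, 1 higher, 0 lower and 8 within 2-fold, near the 85.5% of all measured genes within it. The receptor and target gene Ptch1 was at 740.4 against 927 CPM, the target Gli1 at 114 against 154 CPM and Smo, the signal transducer, at 75.1 against 60.7 CPM. Gli3 was at 24.4 against 4.14 CPM, a ratio of 5.06 (2.00 to 28.7) on 3 intact counts.

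TGF-beta pathway genes had 13 of 17 measured, 4 higher and 1 lower. The ligand Tgfb2 was at 29.8 against 4.14 CPM, a ratio of 6.17 (2.44 to 35.03) on 3 intact counts, Tgfb1 at 23.4 against 9.65 CPM and Inhba, encoding activin A, at 78.7 against 16.5 CPM, 4.57-fold higher (2.71 to 9.23). Tgfbi, a matrix protein induced by this pathway, was at 741 against 301 CPM, 2.46-fold higher (2.16 to 2.83), while the receptors Tgfbr1 and Tgfbr2 were at 55.3 against 44.1 CPM and 188 against 136 CPM. BMP pathway genes had 13 of 26 measured, 0 higher and 4 lower. The ligands Bmp3 and Bmp6 were at 66.6 against 229 CPM and 24.3 against 70.3 CPM, and Nbl1, a secreted BMP antagonist, at 793 against 2183 CPM, 2.75-fold lower (2.61 to 2.90).

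Both PDGF receptors were lower, and Pdgfrb is also the gene that drives the Cre used for the sort. Pdgfrb was at 125 CPM at day 21 against 314 in intact nerve, 2.52-fold lower (2.18 to 2.89), and Pdgfra at 42.5 against 197 CPM, 4.65-fold lower (3.83 to 5.58). The reporter transcript TdTomato was at 64.5 against 37.2 CPM, a log2 ratio of 0.77. Labelling by Cre is permanent, so the reporter need not follow the current Pdgfrb level.

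Genes that address axons and vessels went both ways. Of 32 guidance genes 17 were measured, 4 higher and 7 lower. Ntng1, encoding the membrane-tethered netrin-G1, was at 124 CPM at day 21 against 829 in intact nerve, 6.71-fold lower (6.101 to 7.37), and the secreted netrin genes Ntn1 and Ntn4 were at 152 against 379 CPM and 52.04 against 190.3 CPM. Sema3d and Sema3b, secreted semaphorins, were at 76.9 against 292 CPM and 5.91 against 64.8 CPM, while Sema5a and Epha4 were higher at 67.6 against 23.4 CPM and 34.9 against 11.03 CPM. Ntn4 went from a log2 ratio of -1.87 to -0.97 without the Acta2-rich cells. Of 20 angiogenic genes 11 were measured, 4 higher and 4 lower: Vegfa was at 54.2 against 12.4 CPM, 4.14-fold higher (2.29 to 9.59), Nrp1, a co-receptor for VEGF and semaphorins, at 267 against 88.2 CPM, and Pgf, placental growth factor, at 15.8 against 64.8 CPM. The log2 ratio of Pgf went from -2.05 to -0.24 without cells rich in markers of other types. Gfra1, the GDNF co-receptor, was at 195 against 41.4 CPM, 4.64-fold higher (3.29 to 6.999), and Mdk, encoding midkine, at 304 against 67.6 CPM, 4.45-fold higher (3.39 to 6.08). Midkine was at 1119 CPM at day 7.

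Retinoid genes had 12 of 19 measured, 2 higher and 4 lower. Crabp2, which carries retinoic acid to its nuclear receptor, was at 509 CPM at day 21 against 106 in intact nerve, 4.77-fold higher (3.83 to 6.09), against 34.7 and 26.7 CPM in day 21 endoneurial and epineurial cells. Cyp26b1, which degrades retinoic acid, was at 0.523 against 27.6 CPM, 50.4-fold lower (21.4 to 147), on 7 counts at day 21 and 20 in intact nerve, and its log2 ratio of -5.66 was -0.47 among cells with at least 3 perineurial markers. Rdh10 and Aldh1a1, which act in retinoic acid synthesis, were at 50.9 against 22.1 CPM and 14.4 against 35.8 CPM.

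Sterol and fatty acid synthesis genes had 14 of 15 measured, 1 higher and 7 lower, with a median log2 ratio of -0.99. Idi1, Sqle and Hmgcs1, enzymes of the mevalonate and sterol route, were at 10.5 against 45.5 CPM, 7.70 against 27.6 CPM and 47.8 against 120.0 CPM. Scd1, a fatty acid desaturase, was the 1 higher, at 344 against 149 CPM. Apoe, a lipid carrier, was at 419 against 1219 CPM, 2.91-fold lower (2.71 to 3.13). Of the 13 mitochondrially encoded genes 12 were measured and 4 were lower, and their sum was 8206 against 12317 CPM in perineurial cells, 5965 against 5852 in endoneurial and 5100 against 3803 in epineurial cells. Nuclear respiratory chain genes were within 2-fold in 74 of 76 measured, with a median of -0.40.

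Of 26 measured transcription factors of nerve mesenchyme, 3 were at least 2-fold higher, 4 lower and 19 within 2-fold, against 85.5% of all measured genes within it. Sox4 was at 339.6 against 89.6 CPM, 3.76-fold higher (2.97 to 4.92), and Meox2 at 404 against 193 CPM, whereas Foxd1, a forkhead factor, was at 99.7 against 273 CPM, 2.74-fold lower (2.35 to 3.18), and Foxc2 at 20.9 against 68.9 CPM, a log2 ratio of -1.73 that was -0.95 with cells thinned. Klf5 was at 679.7 against 564 CPM and Ebf2 at 339 against 218 CPM. Of 25 cell cycle genes 1 was measured, Pcna, at 29.8 against 41.4 CPM.

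**Figure D5:**
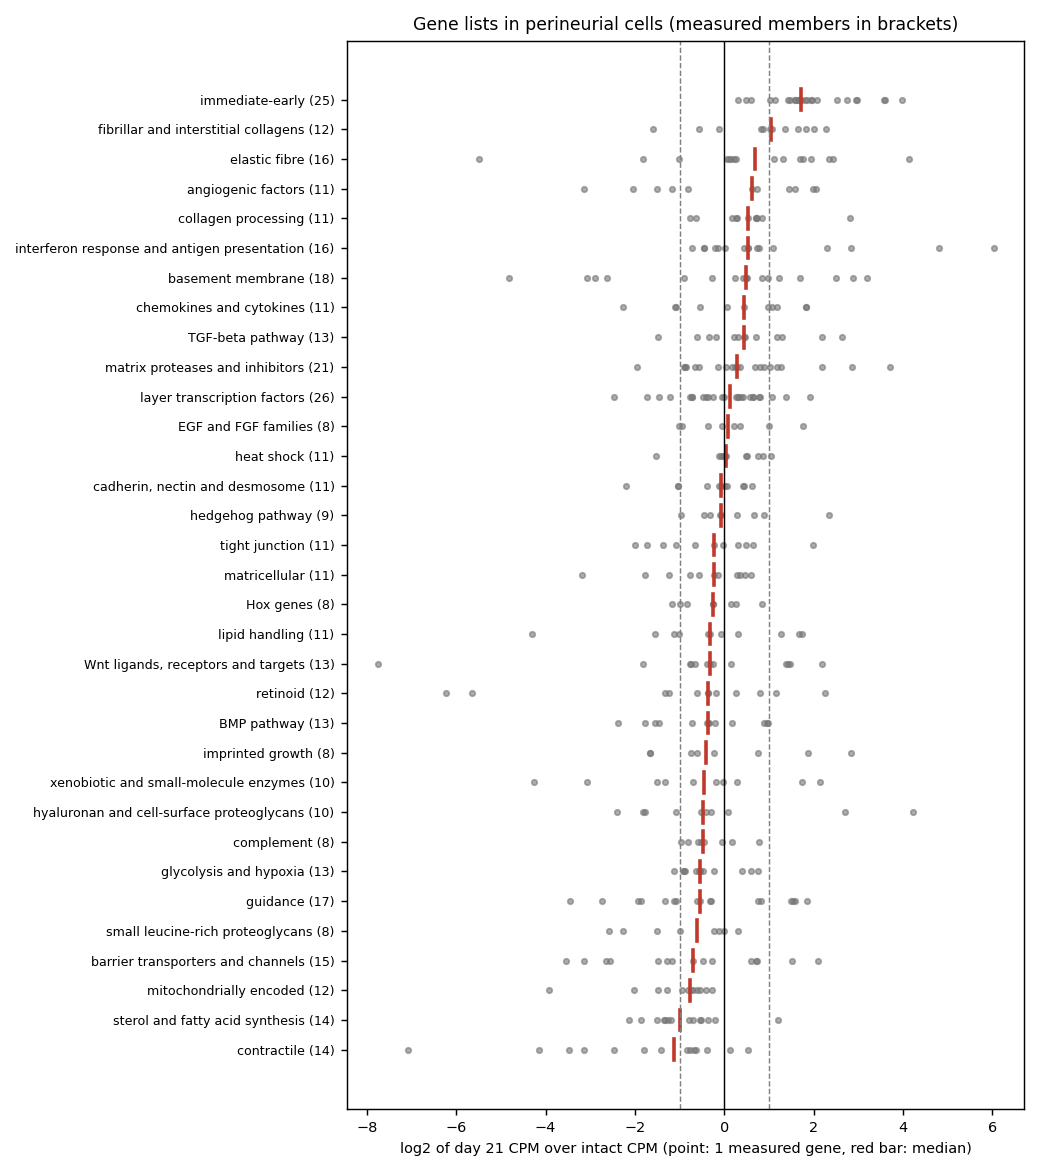
Log2 ratio of day 21 over intact CPM for each measured gene (grey points) of gene lists with at least 8 measured members, marker lists not drawn, with the list's median as a red bar and dashed lines at 2-fold. Of the lists drawn, the immediate-early list has the highest median (1.73) and the contractile list the lowest (-1.12).

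Day 7 perineurial cells, 241 in number with a median of 15443 UMIs, give a side view of the same genes. Msln was at 53.6 CPM at day 7, Cldn1 at 281, Itgb4 at 102 and Slc2a1 at 109, so for Cldn1, Itgb4 and Slc2a1 day 7 was the lowest of the 3 libraries and day 21 lay above it. The summed perineurial markers were 768 CPM at day 7, 2867 at day 21 and 5625 in intact nerve. Lamb1 and Col18a1 were already high at day 7, at 197 and 293 CPM. Gfra1, at 16.8 CPM, and Lgals7, at 39.2, were not at their day 21 level by then.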

How the data were processed

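Single-cell RNA-seq of sorted cells was deposited as UMI counts, whole numbers for each barcode and gene, which the authors made in Cell Ranger (6.1.2 per the file headers; the submitters' processing notes also name 3.0.2, Seurat 4.0.1, mm10 and GRCm38). Cell filters and doublet removal are not given in the sources used here, and no doublet caller was run. Classes came from the authors' deposited metadata; 1 day 21 perineurial cell was not found among the barcodes, and the 3 libraries shared 0 barcodes.

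Counts of MES_PERI cells were summed per library with Python 3.11.15 and scipy 1.17.1. CPM carry exact Poisson 95% intervals, ratios exact conditional binomial intervals and shares Clopper-Pearson intervals, all for counting error only. Ratios had 0.5 counts added, and measured genes had at least 20 CPM in the higher library. The code was tested on simulated data. No test was made between single libraries.

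Named genes were the 15 largest ratios per direction (without transgenes, numbered clones, Y-linked genes and Xist, ribosomal, mitochondrial and haemoglobin genes and non-mesenchymal markers), all perineurial markers, up to 4 of each of 47 gene lists and 14 marker lists, Pdgfrb, Pdgfra and the reporter, plus genes of a pathway that its sentence needed. Members and lists were chosen with earlier results of these data known. Some genes that the rule names are not reported here. Positions are from GENCODE M21. There were 11 alternatives planned and 2 added after seeing the data.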

Additional observations from a re-analysis of the deposited data

Results flagged for a closer look

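For the 7 named genes below, the day 21 to intact ratio was at least 2-fold in perineurial cells. It was at least 2-fold the opposite way in endoneurial or epineurial cells of the same libraries. They are not all such genes. At lower levels, Itgb4 went from 1.15 to 18.4 CPM in endoneurial and from 1.77 to 16.2 CPM in epineurial cells. Lypd2 went from 1.73 to 8.27 CPM and from 5.57 to 12.6 CPM in the same order. The 8 perineurial markers summed to 30.9 CPM in intact and 175 in day 21 epineurial cells. These differences between classes were not tested, since each group was 1 library.

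Sfrp5, the secreted Wnt inhibitor, had a log2 ratio of -2.79 in perineurial cells (796 against 5490 CPM) and 2.31 in epineurial cells (33.3 against 6.59 CPM). Sdc1, encoding the heparan sulfate proteoglycan syndecan-1, had -2.41 in perineurial cells (34.6 against 183 CPM) and 1.73 in epineurial cells (28.1 against 8.36 CPM). Thbs4, encoding thrombospondin-4, had -1.23 (383 against 902 CPM) and 3.11 in epineurial cells (193 against 22.3 CPM), and was -0.91, within 2-fold, without perineurial cells rich in markers of other types.

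Ifitm1 had a log2 ratio of 2.83 in perineurial cells (162 against 22.1 CPM) and -1.59 in epineurial cells (18.5 against 55.7 CPM). Txnip, a redox and glucose-responsive gene, had 1.67 in perineurial cells (89.9 against 27.6 CPM), -1.33 in epineurial cells (159 against 400.0 CPM) and -1.04 in endoneurial cells (71.2 against 146 CPM). With perineurial cells thinned to equal depth its perineurial log2 ratio was 0.76, within 2-fold.

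Aspn, encoding asporin, had -1.002 in perineurial cells (29.9 against 59.3 CPM), 1.46 in epineurial cells (778 against 283 CPM) and 4.29 in endoneurial cells (110 against 5.48 CPM), and the perineurial value was within 2-fold under several alternatives. Fgf7, a growth factor gene, had -1.02 in perineurial cells (33.6 against 67.6 CPM) and 1.25 in endoneurial cells (29.6 against 12.4 CPM), and was -0.99 with ratios centred on the median gene.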

How the results depend on the processing

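Over the alternatives the perineurial marker median stayed between -1.61 and -1.29, and 185 of the 381 higher and 321 of the 583 lower genes kept their 2-fold call in all 10 alternatives that refit every gene. The count of higher genes was 204 with at least 50 CPM required, 859 with at least 5 CPM, 105 at 4-fold and 597 without cells holding other-type markers at 0.1% of UMIs. The count of genes at least 2-fold lower was 292, 1357, 160 and 943 in the same order, and 964 with each cell thinned to 2000 UMIs. Leaving out other-type marker cells kept 28 intact and 1283 day 21 cells. That marker set holds Vtn and Cspg4, which perineurial cells also carry. The log2 ratio of Aspn then went from -1.002 to 0.040 and that of H19 from -1.66 to 0.34. The cause was not tested. Without cells with a UMI of Mbp or of other Schwann cell genes (115 intact and 991 day 21 cells) the log2 ratio of Mbp was -3.09, by construction. No paired analysis was possible because each group had 1 library, and none could be left out. The intact sum of 725278 UMIs limits low genes: 3 counts in it equal 4.14 CPM.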
